A study of Mus musculus with 8 samples.

Results

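The genes described here are 35 enzymes and regulators of sterol synthesis, fatty acid synthesis and fatty acid oxidation, chosen by gene symbol from the 54532 genes of the table. They fall into 14 enzymes of cholesterol synthesis, 5 regulators of the SREBP pathway, 9 enzymes of fatty acid synthesis and desaturation, and 7 enzymes of mitochondrial beta-oxidation. Their mRNA was measured in neutrophils that had infiltrated 2208L mammary tumours. The tumours were grown in Balb/c mice in the mammary fat pad and taken at a diameter of 1 cm. Flow sorting split the cells by surface ICAM1 (CD54), an adhesion receptor for integrins, into an ICAM1high and an ICAM1low population, each with 4 libraries labelled as biological replicates and made from 100 ng of total RNA. All libraries thus share the mouse strain, the tumour line and the site, and the comparison is between the 2 sorted populations with no tumour-free control. The sources used here give neither the age of the mice nor whether same-numbered libraries came from 1 tumour, so p-values measure the spread between these libraries.

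Cholesterol is built from acetyl-CoA through the mevalonate pathway, whose early steps form isoprenoid units, whose middle steps join them into squalene, and whose late steps turn the first sterol, lanosterol, into cholesterol. The membrane-bound transcription factors SREBP are escorted by SCAP from the endoplasmic reticulum to the Golgi when sterols are low, are cut there by proteases, and activate the genes of sterol and fatty acid synthesis, while INSIG proteins hold SCAP back when sterols are plentiful. Fatty acids are made from cytosolic acetyl-CoA, then lengthened and desaturated, or are carried into mitochondria as carnitine esters and burned there. Neutrophils are known to use fatty acids as fuel, as membrane lipid and as the source of arachidonic acid, the precursor of leukotrienes and prostaglandins.

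The promoter windows of members whose levels are described below are shown first, since SREBP works with the factor NF-Y at such promoters and the members differed in direction. RefSeq windows (GRCm38.p6), from 250 bases before to 50 bases after the start, were matched for 29 of the 35 members. A total of 5 motifs were searched on both strands: TCACNCCAC (a sterol element), CACGTG (an E-box), CCAAT (the core bound by NF-Y), GGGCGG (the core bound by Sp factors) and TNAAGGTCA (a core bound by ERR-type nuclear receptors). Among members with a window, Mvd, Srebf1 and Scap had the 3 lowest p of the cholesterol synthesis and SREBP genes, Elovl5 the lowest of fatty acid synthesis and Acadm the lowest of beta-oxidation. Fads1, Scd1, Scd2, Sqle, Fdft1 and Fdps had no matched window, and Mvk and Hmgcs1 were added after the search to show another enzyme of the Mvd pathway and the window with the sterol element. The windows lie at Hmgcs1, chr13:119690101-119690400, plus strand; Mvk, chr5:114444019-114444318, plus strand; Mvd, chr8:122443373-122443672, minus strand; Srebf1, chr11:60222532-60222831, minus strand; Scap, chr9:110333038-110333337, plus strand; Elovl5, chr9:77917115-77917414, plus strand; and Acadm, chr3:153944594-153944893, minus strand. Each is written 5′ to 3′ on the strand of its gene, with capitals for matches to each motif except the Sp core, and with matches on the other strand read as their reverse complement:
Hmgcs1: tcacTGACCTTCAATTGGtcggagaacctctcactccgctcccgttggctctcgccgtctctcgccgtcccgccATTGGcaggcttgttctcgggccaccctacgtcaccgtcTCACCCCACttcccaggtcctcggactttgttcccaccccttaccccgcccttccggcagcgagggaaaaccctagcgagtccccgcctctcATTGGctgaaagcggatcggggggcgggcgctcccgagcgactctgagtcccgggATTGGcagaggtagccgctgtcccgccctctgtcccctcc
Mvk: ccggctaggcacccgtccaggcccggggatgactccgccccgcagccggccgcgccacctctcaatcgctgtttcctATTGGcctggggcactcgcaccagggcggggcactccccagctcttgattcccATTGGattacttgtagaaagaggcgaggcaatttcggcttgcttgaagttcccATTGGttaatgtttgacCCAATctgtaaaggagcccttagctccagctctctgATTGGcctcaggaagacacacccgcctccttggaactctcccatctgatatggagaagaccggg
Mvd: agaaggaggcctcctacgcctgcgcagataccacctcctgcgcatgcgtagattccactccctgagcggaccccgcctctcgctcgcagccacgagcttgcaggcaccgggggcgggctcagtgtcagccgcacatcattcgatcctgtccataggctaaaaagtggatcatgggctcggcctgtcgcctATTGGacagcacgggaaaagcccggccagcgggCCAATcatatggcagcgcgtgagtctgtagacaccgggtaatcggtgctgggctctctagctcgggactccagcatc
Srebf1: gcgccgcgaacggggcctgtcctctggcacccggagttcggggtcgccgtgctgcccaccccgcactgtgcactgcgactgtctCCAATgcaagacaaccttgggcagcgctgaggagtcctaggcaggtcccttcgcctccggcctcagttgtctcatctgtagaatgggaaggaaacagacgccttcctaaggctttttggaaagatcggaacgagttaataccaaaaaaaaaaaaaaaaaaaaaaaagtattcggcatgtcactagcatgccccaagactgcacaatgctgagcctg
Scap: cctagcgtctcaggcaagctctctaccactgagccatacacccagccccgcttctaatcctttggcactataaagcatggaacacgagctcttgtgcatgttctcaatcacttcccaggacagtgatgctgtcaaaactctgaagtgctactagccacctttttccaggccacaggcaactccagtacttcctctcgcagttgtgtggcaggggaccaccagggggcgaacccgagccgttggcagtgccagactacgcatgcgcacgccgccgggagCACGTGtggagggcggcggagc
Elovl5: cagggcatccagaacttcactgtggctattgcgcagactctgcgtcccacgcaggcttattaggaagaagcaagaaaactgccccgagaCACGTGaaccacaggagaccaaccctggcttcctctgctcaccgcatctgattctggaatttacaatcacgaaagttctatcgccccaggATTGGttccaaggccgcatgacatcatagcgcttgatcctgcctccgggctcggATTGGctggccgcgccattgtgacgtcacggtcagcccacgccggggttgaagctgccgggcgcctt
Acadm: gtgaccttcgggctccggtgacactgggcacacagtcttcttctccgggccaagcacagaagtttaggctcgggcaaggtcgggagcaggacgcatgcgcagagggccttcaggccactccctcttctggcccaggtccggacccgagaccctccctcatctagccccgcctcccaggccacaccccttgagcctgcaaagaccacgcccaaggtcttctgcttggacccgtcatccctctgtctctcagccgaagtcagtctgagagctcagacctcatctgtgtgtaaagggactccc

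CCAAT occurred in 10 of 11 windows of cholesterol synthesis genes (90.9%), in 4 of 5 of SREBP regulators, in 3 of 6 of fatty acid synthesis genes and in 1 of 7 of beta-oxidation genes, against 37.41% of all 32851 windows of the same length. The matched window of Acaca, counted among the 6, lies 65766 bases from the 5′ end in the table and held none of the 5 motifs. GGGCGG was present in all 11 cholesterol synthesis windows, and in 72.4% of the 29 member windows against 35.66% of all windows. The cholesterol synthesis windows had from 52.3% (Idi1) to 71.0% (Lss) G and C. All windows were neither limited to genes tested here nor matched for G and C content, so these shares are descriptive. The E-box CACGTG was found in 17.2% of member windows (Hsd17b7, Sc5d, Insig1, Scap and Elovl5) and in 7.15% of all. TCACNCCAC and TNAAGGTCA each matched 1 member window, that of Hmgcs1, which is 3.4% of member windows against 1.24% and 1.28% of all. In Hmgcs1 the TNAAGGTCA match lies directly beside a CCAAT match, so that both appear as 1 run of capitals. The windows of Mvk, whose level was higher in ICAM1high cells, and of Mvd, whose level was lower, both hold CCAAT and GGGCGG. Since CCAAT occurred in 10 of the 11 cholesterol synthesis windows and GGGCGG in all 11, this pair cannot tell whether the letters go with direction, which was not tested. These matches are of letters alone, and no binding was measured.

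The libraries held 10328575 to 20625309 counts in the ICAM1high group and 16768777 to 22751975 in the ICAM1low group. Levels are given as CPM, counts scaled to a common library size, after edgeR's TMM scaling, whose factors were 1.18 to 1.34 in ICAM1high and 0.705 to 0.865 in ICAM1low libraries. Scaling by library totals instead moved the median over all tested genes by 0.68 on the log2 scale, from 0.08 to 0.76, and the share of calls that were higher from 53.6% to 89%. Icam1 itself, the gene behind the sort, was measured at 1459 ± 202 CPM in ICAM1high and 848 ± 214 CPM in ICAM1low libraries (SD, n = 4 each; log2 fold change 0.78, adjusted p = 0.0105). The populations also differed in lineage markers. The summed level of 10 neutrophil markers was 9683 to 12719 CPM in ICAM1high and 42581 to 81069 CPM in ICAM1low libraries, with all 10 lower, and that of 12 macrophage markers was 4317 to 7068 against 882 to 1337 CPM, with 11 of 12 higher. Neutrophil transcripts such as S100a8 were present in every library, and so were macrophage transcripts such as Adgre1. Of 7 epithelial markers, 3 of the 5 tested were lower in ICAM1high (summed level 110.9 to 163 against 258 to 459 CPM). Krt5 was not tested, with 0 counts in the 4 ICAM1high libraries and 0 to 3 counts in the ICAM1low libraries. The adipocyte markers Adipoq, Plin1, Cidec, Lep and Cfd did not exceed 10 counts in any library, so that the summed adipocyte level of 27.9 to 39.5 against 36.4 to 56.4 CPM was almost all Lipe. Summed levels of 6 lymphocyte markers were 5.79 to 24.0 against 12.9 to 22.3 CPM, those of 5 fibroblast markers 37.1 to 80.3 against 20.8 to 41.2 CPM, and those of 4 endothelial markers 35.1 to 46.3 against 18.8 to 43.7 CPM. Of the 2 lymphocyte, 4 fibroblast and 4 endothelial markers tested, 1 in each list was called. Cd3d was lower (log2 fold change -1.27, adjusted p = 0.00403). Col1a2 (1.24, adjusted p = 0.00936) and Kdr (2.05, adjusted p = 0.000802) were higher. The part of these other cells in the results below was not tested, and in sorted bulk RNA a change in the share of cells and a change in RNA per cell cannot be told apart.

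In the comparison of ICAM1high with ICAM1low, 14 of the 34 members that were tested passed an adjusted p of 0.05 in edgeR's quasi-likelihood test (41.2%), against 42.1% of all 14051 genes tested. The test placed 10 members higher in ICAM1high cells (29.4%, against 22.6% of all tested genes) and 4 lower (11.8%, against 19.6%), and 20 did not pass. Scaled by library totals, 20 members were higher and 1, Mvd, was lower. The members as a whole were therefore called about as often as any gene, and their median log2 fold change was 0.17 against 0.08 for all genes. Within cholesterol synthesis, SREBP regulation and fatty acid synthesis the called members were divided in direction, with single log2 fold changes from -1.42 to 3.03. The higher members were Fads1, Dhcr7, Mvk, Acaca, Nsdhl, Acadm, Elovl5, Scd2, Acly and Scap, and the lower ones Mvd, Scd1, Elovl6 and Srebf1. In CPM, the 4 libraries of 1 group did not overlap the 4 of the other in 11 members (32.4%), against 41.5% of all tested genes. The remaining member, Fdps (farnesyl diphosphate synthase), had 0 to 10 counts per library and was not tested, and 23.5% of its 75-base transcript words also occur in other genes.

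**Figure D1:**
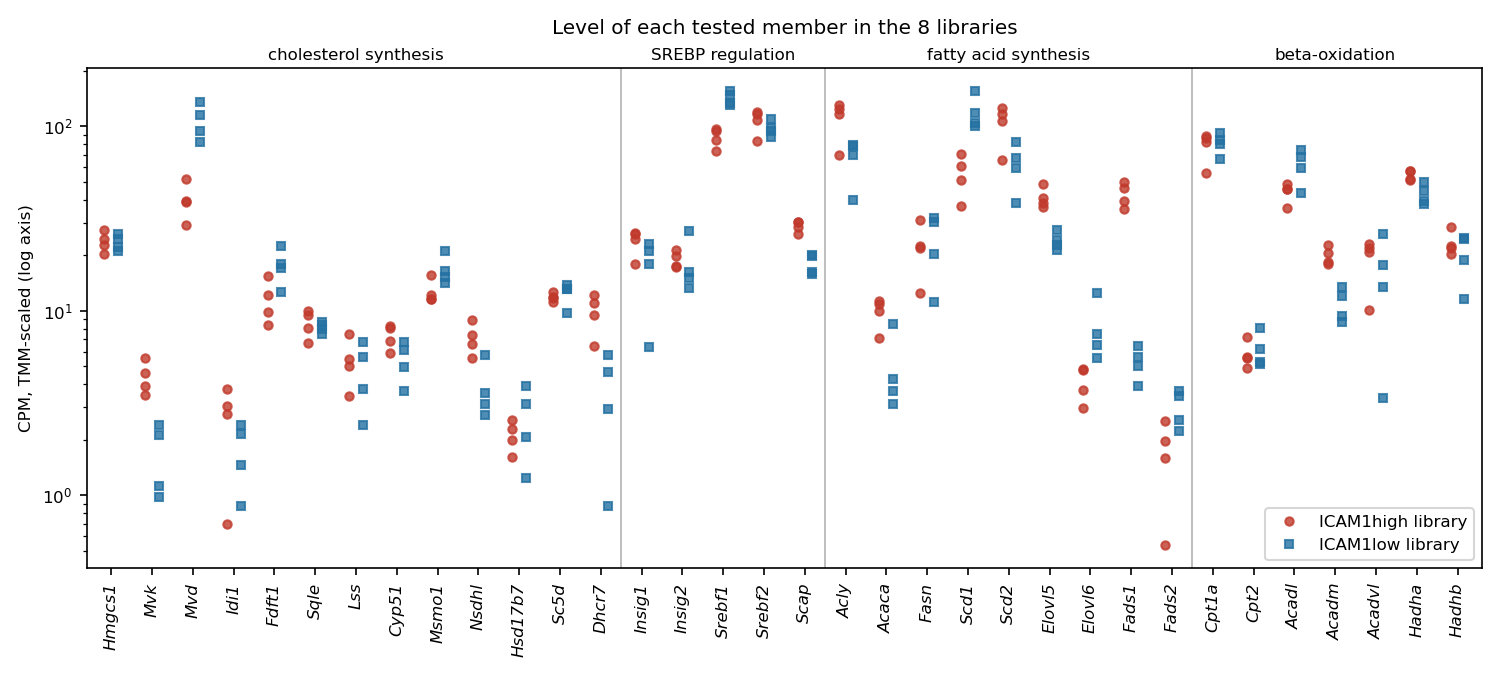
Level of each of the 34 tested members in every library, in TMM-scaled CPM on a log axis, grouped by role, with circles for the 4 ICAM1high and squares for the 4 ICAM1low libraries. Fads1 shows the widest gap, from 5.24 CPM on average in ICAM1low to 42.8 CPM in ICAM1high, while Mvd, Srebf1 and Scd1 lie lower in ICAM1high and most other members overlap.

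Among the enzymes of cholesterol synthesis, Mvd was lower in ICAM1high cells, Mvk, Nsdhl and Dhcr7 were higher, and the other 9 tested did not pass. Over the 13, the median was 0.08 on the log2 scale, the same as for all tested genes, of which 42.1% passed. Mvk (ENSMUSG00000041939, chr5:114444269-114460591, plus strand), mevalonate kinase, measured 5.55, 4.599, 3.48 and 3.89 CPM in ICAM1high replicates 1 to 4 and 2.13, 0.978, 2.42 and 1.12 CPM in ICAM1low replicates 1 to 4. The groups did not overlap, and the log2 fold change was 1.40 (SE 0.36, adjusted p = 0.0107). Mvd (ENSMUSG00000006517, chr8:122433601-122443422, minus strand), mevalonate diphosphate decarboxylase, acts later in the same branch that makes isoprenoid units, and went the other way. It measured 39.5, 29.0, 38.8 and 51.8 CPM in the ICAM1high and 135, 81.7, 93.7 and 116 CPM in the ICAM1low libraries, again without overlap. Its log2 fold change was -1.42 (SE 0.22, adjusted p = 0.00061), and it remained lower under library totals at -0.74 (adjusted p = 0.0123).

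Mvd also took the greatest share of the counts of these enzymes. The 14 enzymes summed to 147 ± 6.85 CPM in ICAM1high and 208 ± 17.2 CPM in ICAM1low libraries (SD, n = 4 each), and Mvd made up 26.9 ± 5.67% of the sum in the first and 50.7 ± 7.38% in the second. Without Mvd the sums were 107 ± 7.62 and 102 ± 9.04 CPM, so the difference between the summed levels lay in this 1 enzyme.

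Late in the pathway, Nsdhl and Dhcr7 were higher. Dhcr7 (ENSMUSG00000058454, chr7:143823145-143848410, plus strand), the reductase that converts the last intermediate to cholesterol, measured 12.1, 11.1, 9.51 and 6.41 CPM in ICAM1high and 2.93, 4.65, 5.75 and 0.874 CPM in ICAM1low libraries. All ICAM1high values lay above all ICAM1low values, though the latter differed severalfold among themselves; the log2 fold change was 1.46 (SE 0.46, adjusted p = 0.0264). The X-linked Nsdhl (ENSMUSG00000031349, chrX:72918557-72958514, plus strand), which takes part in removing methyl groups from lanosterol, measured 8.93, 6.60, 7.43 and 5.57 CPM against 2.71, 5.75, 3.57 and 3.12 CPM, with 1 ICAM1low library inside the ICAM1high range (log2 fold change 0.91, SE 0.29, adjusted p = 0.0266). Dhcr7 lost its call when any of 4 single libraries was left out (adjusted p = 0.0553 without ICAM1high replicate 1, 0.0669 without ICAM1high replicate 2, 0.0525 without ICAM1high replicate 3 and 0.0577 without ICAM1low replicate 1), and Nsdhl lost its call in 5 of the 8 such fits (without ICAM1high replicates 1, 2 or 3 or ICAM1low replicates 1 or 3; adjusted p = 0.058 to 0.071).

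Of the enzymes that did not pass, Hmgcs1 (HMG-CoA synthase, the entry step) measured 23.7 ± 2.99 and 23.5 ± 2.27 CPM, a log2 fold change of 0.01 (SE 0.16). Sqle (squalene epoxidase), at 0.08, and Sc5d (sterol desaturase), at -0.07, also had log2 fold changes near 0 with SEs of 0.20 and 0.18. Fdft1 (squalene synthase) was nearest to the threshold at -0.61 (SE 0.24, adjusted p = 0.0676), and it passed without ICAM1high replicate 1 (adjusted p = 0.0219) or without ICAM1low replicate 1 (adjusted p = 0.0376), and also with DESeq2 (0.0278) and RLE scaling (0.0471). However, 18.3% of its exon bases lie opposite exons of Ctsb, which had 463062 counts over the 8 libraries against 2098 for Fdft1, and the sources do not say whether counting used strand. Msmo1 (-0.39), Hsd17b7 (-0.30), Lss (0.21), Cyp51 (0.44) and Idi1 (0.57) make up the rest, the first 4 acting on sterol rings and the last on isoprenoid units. Idi1 rested on a mean of 1.72 ± 0.693 CPM in ICAM1low, and 23.6% of its transcript words occur in other genes.

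**Figure D2:**
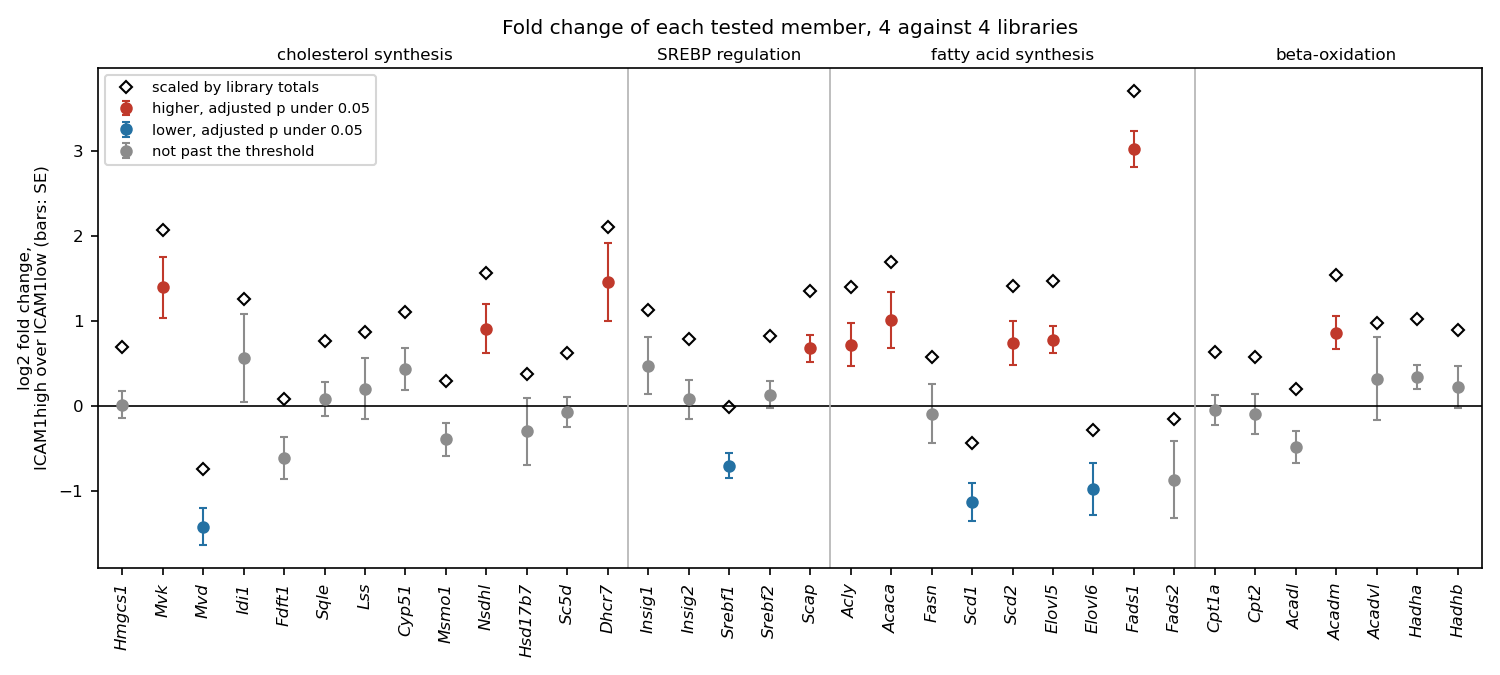
Log2 fold change of each of the 34 tested members, ICAM1high over ICAM1low, with its standard error as a bar, coloured by whether it passed the test; open diamonds give the value when libraries were scaled by their totals. Fads1 stands at 3.03 and Mvd at -1.42, and the diamonds lie above the points throughout, so that under library totals Srebf1 stands at -0.01 and Scd1 at -0.43.

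Among the SREBP regulators, the gene of 1 precursor and that of its escort protein moved in opposite directions. Srebf1 (ENSMUSG00000020538, chr11:60199089-60222581, minus strand), whose product mainly drives fatty acid genes, measured 73.8, 93.8, 84.7 and 96.8 CPM in ICAM1high and 130.3, 148, 133 and 156 CPM in ICAM1low libraries, with every ICAM1high library below every ICAM1low library. Its log2 fold change was -0.70 (SE 0.14, adjusted p = 0.00336), but -0.01 (adjusted p = 0.967) under library totals. Srebf2, whose product mainly drives cholesterol genes, measured 107 ± 16.2 and 97.1 ± 9.15 CPM, which did not pass (log2 fold change 0.14, SE 0.16, adjusted p = 0.511). Scap (ENSMUSG00000032485, chr9:110333288-110384950, plus strand), the sterol sensor that carries both precursors, measured 28.3, 30.3, 30.5 and 26.1 CPM in ICAM1high and 19.9, 19.9, 16.2 and 15.9 CPM in ICAM1low libraries, which did not overlap (log2 fold change 0.68, SE 0.16, adjusted p = 0.00587). The retention proteins Insig1 and Insig2 did not pass, at 0.47 (SE 0.34) and 0.08 (SE 0.23). Insig1 measured 21.0, 22.9, 18.004 and 6.37 CPM in ICAM1low replicates 1 to 4, with replicate 4 below the other libraries of both groups, against 17.9, 26.3, 24.6 and 26.0 CPM in ICAM1high.

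Fatty acid synthesis held 7 of the 14 called members, 5 higher and 2 lower of 9 tested, and a median of 0.72 on the log2 scale. Of all tested genes, 22.6% were higher and 19.6% lower. Among the higher calls of this role, those of Acly, Acaca and Scd2 held in only 2, 3 and 2 of the 8 fits with 1 library left out. The higher ones were Fads1, Elovl5, Acaca, Scd2 and Acly and the lower ones Scd1 and Elovl6. Fads1 (ENSMUSG00000010663, chr19:10182888-10196870, plus strand), the desaturase that makes arachidonic acid from its direct precursor, had the highest fold change of the 34. It measured 39.2, 50.1, 46.2 and 35.6 CPM in ICAM1high and 3.89, 5.63, 6.44 and 4.99 CPM in ICAM1low libraries, so that the lowest ICAM1high value was several times the highest ICAM1low value. The log2 fold change was 3.03 (SE 0.21, adjusted p = 5.58e-06), and it lay between 2.79 and 3.72 in the 21 alternative analyses, passing in each. Fads2, the desaturase that acts before Fads1 in the same pathway and whose gene starts 81385 bases away on the other strand, measured 0.535, 1.96, 1.59 and 2.52 CPM against 3.67, 2.57, 2.24 and 3.43 CPM, which did not pass (log2 fold change -0.86, SE 0.45, adjusted p = 0.146). Elovl5 (ENSMUSG00000032349, chr9:77917364-77984519, plus strand), which lengthens polyunsaturated fatty acids between those desaturation steps, measured 36.3, 48.6, 41.0 and 38.2 CPM in ICAM1high and 22.6, 24.1, 27.3 and 21.3 CPM in ICAM1low libraries, without overlap (log2 fold change 0.78, SE 0.16, adjusted p = 0.00279).

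The enzymes of saturated and monounsaturated fatty acids were split. Scd1 (ENSMUSG00000037071, chr19:44394451-44407709, minus strand) and Scd2 (ENSMUSG00000025203, chr19:44293676-44306864, plus strand) lie on the same chromosome, with 5′ ends 114033 bases apart. Both encode desaturases that make oleic and palmitoleic acid. Scd1 measured 37.2, 50.8, 60.8 and 71.1 CPM in ICAM1high and 104, 118, 156 and 101 CPM in ICAM1low libraries and was lower without overlap (log2 fold change -1.12, SE 0.22, adjusted p = 0.00274; -0.43 and adjusted p = 0.153 under library totals). Scd2 measured 65.5, 125, 116 and 107 CPM against 59.6, 82.3, 67.5 and 38.4 CPM and was higher, though ICAM1high replicate 1 lay within the ICAM1low range (log2 fold change 0.74, SE 0.26, adjusted p = 0.0411). Only 3.15% of the transcript words of Scd1 and 1.78% of those of Scd2 occur in other genes. Elovl6 (ENSMUSG00000041220, chr3:129532355-129638495, plus strand), which lengthens palmitate to stearate, measured 2.96, 4.77, 4.83 and 3.74 CPM against 6.53, 7.52, 12.4 and 5.55 CPM and was lower (log2 fold change -0.97, SE 0.30, adjusted p = 0.0243; -0.29 and adjusted p = 0.476 under library totals). Its call was lost without ICAM1high replicate 4 (adjusted p = 0.0533) and without ICAM1low replicate 3 (adjusted p = 0.0755).

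At the start of fatty acid synthesis, Acly and Acaca were higher, and the synthase Fasn did not pass. Acly (ENSMUSG00000020917, chr11:100476353-100528000, minus strand), ATP citrate lyase, the source of cytosolic acetyl-CoA, measured 70.0, 129.7, 123 and 117 CPM in ICAM1high and 79.1, 69.9, 77.8 and 39.9 CPM in ICAM1low libraries (log2 fold change 0.72, SE 0.25, adjusted p = 0.0421). Acaca (ENSMUSG00000020532, chr11:84129672-84401651, plus strand), the carboxylase that makes malonyl-CoA, measured 7.16, 10.8, 11.2 and 9.99 CPM against 8.44, 3.67, 3.11 and 4.24 CPM (log2 fold change 1.02, SE 0.33, adjusted p = 0.0287). In both, ICAM1high replicate 1 was the lowest of its group and lay within the ICAM1low range. For Acaca, 26.8% of the transcript words occur in other genes, so its counts are less certain. Fasn, the synthase, ranged widely in both groups, at 12.5, 31.1, 22.3 and 21.9 CPM and 31.8, 30.1, 20.4 and 11.2 CPM, and did not pass (log2 fold change -0.09, SE 0.35, adjusted p = 0.853). The calls of Acly, Scd2 and Acaca lay near the threshold and were lost when most single libraries were left out. Leaving out any of ICAM1high replicates 2, 3 or 4 or ICAM1low replicate 3 ended the calls of Acly, Scd2 and Acaca alike. ICAM1low replicate 4 was also needed for Acly and Scd2, ICAM1low replicate 2 for Acly and Acaca, and ICAM1low replicate 1 for Scd2. The adjusted p reached 0.12 for Acly, 0.121 for Scd2 and 0.0852 for Acaca. Without ICAM1high replicate 1 it was 0.0117 for Acly, 0.0119 for Scd2 and 0.026 for Acaca. Calls over all tested genes also fell with fewer libraries, from 3172 higher and 2748 lower to 2345 and 2157 without ICAM1high replicate 2. With the run of library numbers as a covariate, the adjusted p was 0.0631 for Acly and 0.0594 for Scd2, and RLE scaling gave 0.0552 and 0.0522.

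Of the beta-oxidation enzymes, 1 of 7 passed, Acadm, which was higher, against 42.1% of all tested genes. The median was 0.22 on the log2 scale. Acadm (ENSMUSG00000062908, chr3:153922357-153944632, minus strand), the medium-chain acyl-CoA dehydrogenase, measured 20.5, 22.7, 18.4 and 17.8 CPM in ICAM1high and 8.73, 13.5, 12.0 and 9.36 CPM in ICAM1low libraries, without overlap (log2 fold change 0.87, SE 0.20, adjusted p = 0.00543). Hadha, which encodes the alpha subunit of the trifunctional protein, measured 56.9, 57.4, 51.3 and 51.7 CPM against 37.7, 44.5, 39.2 and 49.98 CPM. Those groups did not overlap either, but the log2 fold change of 0.34 (SE 0.14) had an adjusted p of 0.0788, which was 0.0362 without ICAM1low replicate 4. Hadhb, the beta subunit, read from a start 86 bases away in the other direction, did not pass (log2 fold change 0.22, SE 0.24, adjusted p = 0.49), and 16.7% of its transcript words occur in other genes. The long-chain dehydrogenase Acadl was nearest to a lower call, at 44.0 ± 5.30 against 61.5 ± 13.6 CPM (log2 fold change -0.49, SE 0.19, adjusted p = 0.0598; 0.0142 without ICAM1low replicate 1). It was called lower with DESeq2 (adjusted p = 0.0222), RLE scaling (0.0383), upper-quartile scaling (0.0461) and the filter of 50 counts in 4 libraries (0.0493). Acadvl, the very-long-chain enzyme, measured 10.1, 21.97, 22.9 and 20.9 CPM against 26.1, 17.8, 13.4 and 3.37 CPM, with 1 low library in each group (log2 fold change 0.32, SE 0.49). Of its exon bases, 42.9% overlap exons of Dvl2, whose counts were of the same order. The carnitine transferases that admit fatty acids to mitochondria, Cpt1a at 78.1 ± 15.1 against 80.6 ± 10.8 CPM and Cpt2 at 5.82 ± 0.983 against 6.19 ± 1.34 CPM, had log2 fold changes of -0.05 (SE 0.18) and -0.09 (SE 0.24).

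Levels of different genes can be set side by side only per length, here the deposited gene length, as CPM per kilobase. That length can differ from the length of the transcripts made in these cells, so the order of genes is approximate. On that scale Mvd, at 21.4 and 57.3 in ICAM1high and ICAM1low cells, had the highest level of the 34 in ICAM1low cells. Acadl stood at 21.9 and 30.7, Srebf1 at 15.5 and 25.2, Scd1 at 11.4 and 24.7 and Cpt1a at 18.2 and 18.7 CPM per kilobase in the same order of groups. Acly, at 20.8 and 12.6, and Scd2, at 19.0 and 11.4 CPM per kilobase, were among the higher ones in ICAM1high cells, where Acadl and Mvd led. Fads1 went from the lower part of the list in ICAM1low cells, at 1.52 CPM per kilobase, to 12.4 in ICAM1high cells.

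Ratios of related members within a library do not depend on how libraries are scaled, and 8 of them were compared as log2 ratios of counts per base with an exact two-sided permutation test over libraries. With 4 libraries against 4 the smallest p this test can give is 0.0286. Because each single gene had already been compared, the ratios restate those differences free of scaling. The sign of a ratio depends on the deposited gene lengths, while its difference between groups does not. Scd1 over Scd2 was -0.64, -1.12, -0.76 and -0.42 in ICAM1high and 0.97, 0.69, 1.38 and 1.56 in ICAM1low libraries, so that Scd2 was the more abundant in all ICAM1high libraries and Scd1 in all ICAM1low ones (difference -1.89, exact p = 0.0286). Srebf1 over Srebf2 was 0.07 ± 0.07 against 0.90 ± 0.15 (SD, n = 4 each), near parity in ICAM1high cells (difference -0.83, exact p = 0.0286). Fads1 over Fads2 was 4.95, 3.47, 3.64 and 2.61 against -1.11, -0.07, 0.31 and -0.66, positive in all ICAM1high libraries and in 1 ICAM1low library (difference 4.05, exact p = 0.0286). Elovl5 over Elovl6 was 4.21 ± 0.22 against 2.50 ± 0.35 (difference 1.71, exact p = 0.0286). In these 4 ratios the groups did not overlap, and adjusted over the 8 ratios each p was 0.0572, so none passed 0.05 after adjustment.

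Acaca over Fasn was higher in ICAM1high by 1.15 (exact p = 0.0571, adjusted 0.0914), and by 1.44 (exact p = 0.0286) without ICAM1low replicate 4. Insig1 over Insig2 differed by 0.48 (exact p = 0.743), which turned to -0.16 without ICAM1low replicate 4. Cpt1a over Cpt2 and Hadha over Hadhb differed by 0.02 (exact p = 0.971) and 0.08 (exact p = 0.886), against SDs of up to 0.53 and 0.41 within a group.

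**Figure D3:**
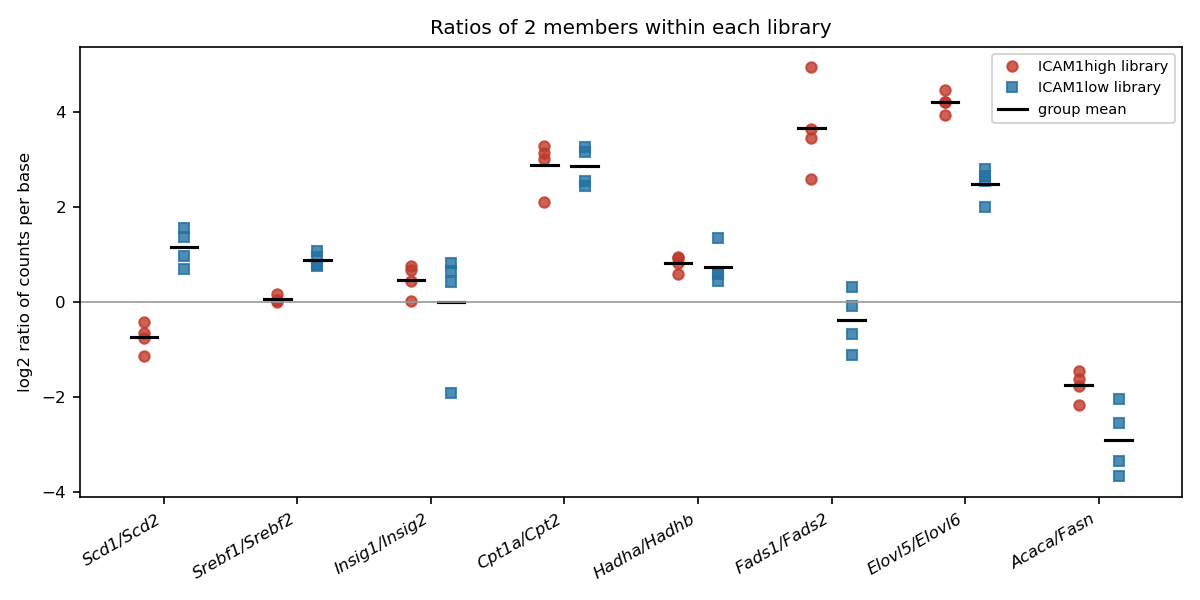
Log2 ratio of counts per base of 8 pairs of related members within each library, with circles for ICAM1high, squares for ICAM1low and a bar for each group mean. The groups separate fully for Scd1/Scd2, Srebf1/Srebf2, Fads1/Fads2 and Elovl5/Elovl6 and overlap for the other 4 pairs.

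Libraries of 1 group differed among themselves across these genes. ICAM1high replicate 1 had the lowest level of its group in 18 of the 34 tested members, among them 8 of the 9 fatty acid synthesis enzymes, and the highest in 7, among them Mvk, Nsdhl and Dhcr7. ICAM1high replicate 2 was highest in 13. In the ICAM1low group, replicate 4 was lowest in 13 and replicate 1 in 12. ICAM1high replicate 1 also had the highest summed macrophage markers of its group, 7068 CPM, and ICAM1low replicate 4 the highest summed neutrophil markers, 81069 CPM, and their part in the members' levels was not tested. With both of these libraries left out, 10 members were higher and 5 lower, of which 9 and 4 were among the 14 called with all libraries.

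The other genes of the same pathways that were listed, 79 in all with 71 tested, included 22 higher (31.0%) and 11 lower (15.5%) in ICAM1high cells, against 22.6% and 19.6% of all tested genes. These lists, like the members, were chosen with earlier results of these data known, so the shares describe the lists and test nothing. Of 10 further genes of cholesterol synthesis, Erg28, an endoplasmic reticulum scaffold for sterol enzymes, was higher (log2 fold change 1.41, adjusted p = 0.00573). Por, the reductase that feeds electrons to Cyp51 and Sqle, was lower at 112 ± 3.66 against 487 ± 21.3 CPM (log2 fold change -2.11, SE 0.13, adjusted p = 3.18e-06), and so was Lbr, a nuclear envelope protein with sterol reductase activity (log2 fold change -0.94, adjusted p = 0.0144). Por and Mvd had the most negative log2 fold changes of the cholesterol synthesis genes tested, members included.

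Of 13 further genes of SREBP processing and sterol sensing, 5 were higher and 2 lower (53.8% called, against 42.1% of all tested genes). Both proteases that cut SREBP were higher: Mbtps2 at 14.7 ± 1.64 against 4.72 ± 0.963 CPM (log2 fold change 1.64, adjusted p = 0.000238) and Mbtps1 at 49.03 ± 7.35 against 29.5 ± 4.93 CPM (adjusted p = 0.00738). The oxysterol receptor genes moved apart, with Nr1h3 higher at 18.5 ± 4.04 against 3.54 ± 1.42 CPM (adjusted p = 0.000396) and Nr1h2 lower at 163 ± 24.1 against 326 ± 59.5 CPM (adjusted p = 0.0013). The others called were Erlin1 (0.67) and Npc2 (1.34), which were higher, and Rnf145 (-0.61), which was lower; these and Mbtps1 were named after their values were seen.

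Of 26 further genes of fatty acid synthesis, 21 were tested, 5 were higher and 4 lower (42.9% called, against 42.1% of all tested genes). Hsd17b12, the reductase of the elongation cycle that works with the Elovl enzymes, was higher at 52.7 ± 7.995 against 18.05 ± 5.42 CPM (log2 fold change 1.54, adjusted p = 0.00048). Acss2, which makes acetyl-CoA from acetate, was lower at 5.85 ± 0.305 against 16.3 ± 1.43 CPM (log2 fold change -1.48, adjusted p = 0.00013). Mecr, of mitochondrial fatty acid synthesis, was higher (log2 fold change 1.39, adjusted p = 0.00536). The rest of the calls, named after their values were seen, were Mcat (0.90), Hacd3 (0.98) and Fads3 (1.40) higher, and Me1 (-1.02), Oxsm (-0.80) and Elovl7 (-1.46) lower.

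Of 30 further genes of fatty acid oxidation, 27 were tested, 11 were higher and 3 lower (51.9% called, against 42.1% of all tested genes), with a median of 0.75 on the log2 scale, against 0.22 for the 7 members of that role. Hsd17b4, a multifunctional enzyme of peroxisomal oxidation, was higher at 42.3 ± 3.52 against 13.1 ± 3.60 CPM (log2 fold change 1.68, SE 0.20, adjusted p = 0.00016). The other higher genes were named after their values were seen. They were 5 further genes of the acyl-CoA dehydrogenase family, Acads (0.71), Acad8 (0.97), Acad9 (0.93), Acad10 (1.13) and Acad11 (0.81). The family name does not show that each of them acts on fatty acids. The rest were Echs1 (1.08), Hadh (1.16) and Acaa2 (0.89), enzymes of the mitochondrial cycle, and the regulators Pparg and Ppargc1b. Slc25a20, the carrier that exchanges acylcarnitine across the inner mitochondrial membrane, was lower at 37.0 ± 5.08 against 101 ± 15.6 CPM (log2 fold change -1.46, adjusted p = 0.00012). Among genes of transcriptional regulators, Ppard was lower (log2 fold change -1.12, adjusted p = 0.000173), and so was Esrra (log2 fold change -0.63, adjusted p = 0.0229), while Pparg was higher from a very low level, at 4.26 ± 1.64 against 0.419 ± 0.410 CPM (adjusted p = 0.00367). Ppargc1b, the gene of a coactivator, was higher at 1.47 ± 0.370 against 0.140 ± 0.0994 CPM (adjusted p = 0.00305), and Esrra too was named after its values were seen. Under library totals the 79 genes gave 49 higher and 4 lower.

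**Figure D4:**
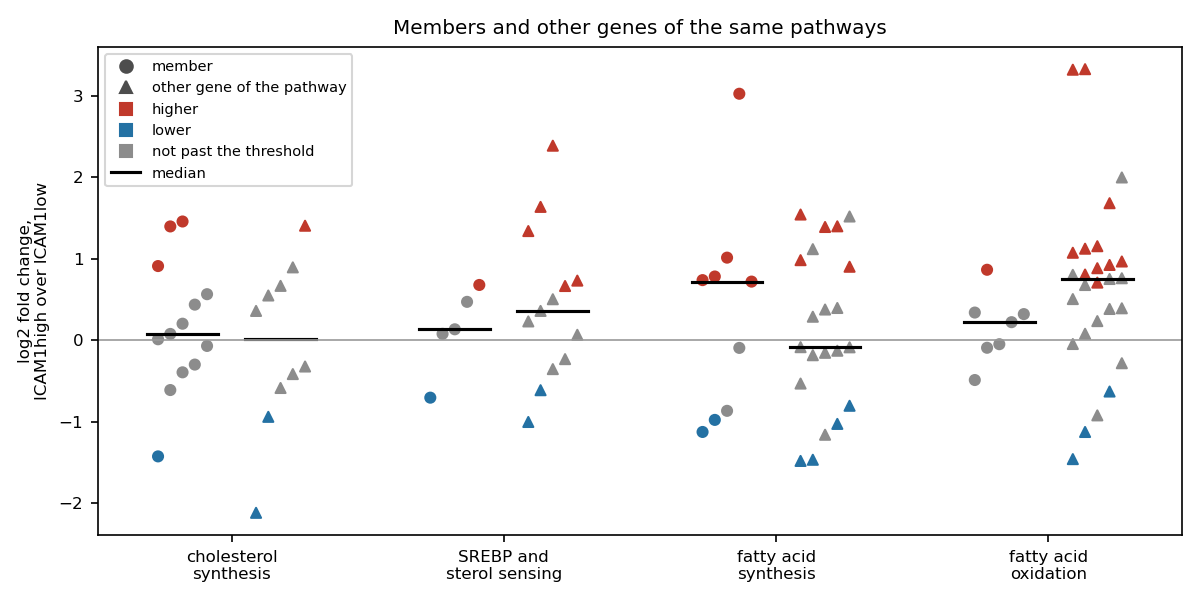
Log2 fold change, ICAM1high over ICAM1low, of the members (circles) and of other tested genes of the same pathways (triangles) in 4 roles, coloured by call, with a bar at each median. Calls in both directions occur in every set except the oxidation members, and the other oxidation genes have the highest median, 0.75.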

How the data were processed

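The deposited table holds whole-number read counts per gene for 8 mRNA libraries, with gene length and position, as the authors left it; per the submitters' processing notes HISAT2 and mm10 were used. The sources used here do not give the aligner version, counting tool, annotation release, strand setting or filters. Gene length, a deposited column of another unit, served for levels per kilobase and ratios. No other per-sample column was left unmapped.

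Groups and replicate numbers came from the sample titles. Genes were filtered with filterByExpr, TMM-scaled and tested with edgeR 4.0.16 (glmQLFit, glmQLFTest; R 4.3.3), 4 against 4, unpaired, with Benjamini-Hochberg adjustment over 14051 genes and a threshold of 0.05. SEs were derived from the fold change and its F statistic. The fit was tested on simulated counts. Ratios used a prior count of 0.5. Alternatives used DESeq2 1.42.0, limma-voom (limma 3.58.1), other scalings and filters, blocks and left-out libraries. Shared 75-base words and exon overlaps were found with GENCODE M21, which holds 99.8% of the gene identifiers; scripts ran in Python 3.11.15.

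All 35 members are named; of each pathway list, the 3 genes with the smallest p and an average log2 CPM of at least 1. The members and lists were chosen with earlier results of these data known. Library names of the 2 populations share the numbers 898, 899, 001 and 002, for replicates 1 to 4. Labels state no shared animal behind such a number, and deviations of same-numbered libraries correlated at -0.57, 0.21, 0.18 and -0.30 for replicates 1 to 4. The run of library numbers sets 898 and 899 against 001 and 002, and the labels name no batch behind it.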

Additional observations from a re-analysis of the deposited data

Results flagged for a closer look

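In 4 libraries of a group, a value was picked out when its gap to the nearest other value took up more of the group's range than the critical value of Dixon's test at 95%. Of 70 groups examined (35 members in 2 populations), 2 were picked out, and chance picks out about 1 group in 20. Msmo1, the methylsterol oxygenase of cholesterol synthesis, measured 15.6 CPM in ICAM1high replicate 1 and 11.5 to 12.2 CPM in the other ICAM1high libraries, a gap of 0.842 of the range. Acadvl, the very-long-chain acyl-CoA dehydrogenase, measured 10.1 CPM in ICAM1high replicate 1 and 20.9 to 22.9 CPM in the others, also a gap of 0.842 of the range. Neither gene passed the test between populations.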

How the results depend on the processing

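Across 21 alternatives, the 14 called members kept their direction in every fit. Fads1 and Mvd kept the call in all 21, and 8 members (Mvk, Scap, Elovl5, Fads1 and Acadm higher, Mvd, Srebf1 and Scd1 lower) kept it with any 1 library left out. The counts of higher and lower members, 10 and 4, became 20 and 1 under library totals, 8 and 6 under RLE scaling, 10 and 6 with DESeq2, 9 and 5 under upper-quartile scaling, 8 and 4 with the run of library numbers as a covariate (Acly and Scd2 lost), 3 and 2 with replicates 1 and 2 alone, 2 and 3 with replicates 3 and 4 alone, and 5 to 9 and 3 to 6 with 1 library left out; the cause was not tested. With the replicate block they were 6 and 4, with Nsdhl, Acly, Acaca and Scd2 lost (adjusted p = 0.0669, 0.103, 0.0766 and 0.0625); the correlations of same-numbered libraries do not settle a pairing. Of all tested genes, library totals called 6818 higher and 839 lower. Depth limits Fdps, at 0 to 10 counts a library.

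Signs reversed only for 14 members that were not called and for the ratios Insig1 over Insig2, Cpt1a over Cpt2 and Hadha over Hadhb. All values are log2. Under library totals the values were 0.080 for Fdft1, 0.30 for Msmo1, 0.38 for Hsd17b7, 0.62 for Sc5d, 0.58 for Fasn, 0.64 for Cpt1a, 0.58 for Cpt2 and 0.21 for Acadl. With replicates 3 and 4 alone they were -0.043 for Hmgcs1, -0.21 for Sqle, -0.19 for Insig2, 0.44 for Fasn and 0.17 for Cpt1a. With replicates 1 and 2 alone they were -0.19 for Lss, 0.025 for Sc5d, -0.047 for Srebf2 and -0.45 for Acadvl. Hmgcs1 was -0.053 with DESeq2, -0.052 with RLE scaling and -0.0086 under upper-quartile scaling, and Sqle -0.0084 without both ICAM1high replicate 1 and ICAM1low replicate 4. Leaving out 1 library gave -0.078 to 0.070 for Hmgcs1, -0.020 to 0.16 for Sqle, -0.026 to 0.45 for Lss, -0.032 to 0.35 for Insig2, -0.33 to 0.094 for Fasn, -0.13 to 0.051 for Cpt1a, -0.25 to 0.063 for Cpt2 and -0.011 to 0.72 for Acadvl. With 1 library left out, the ratios ranged from -0.16 to 0.75 for Insig1 over Insig2, -0.11 to 0.28 for Cpt1a over Cpt2 and -0.028 to 0.28 for Hadha over Hadhb. Acaca over Fasn ranged from 0.89 to 1.44 and kept its sign.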
